A study of Danio rerio with 20 samples.

Results

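A set of 92 genes was low in the zebrafish caudal fin blastema 1 day after the fin was cut, against the uninjured fin. In the blastema at day 4 it was near the uninjured level. The set was chosen on RNA-seq of wildtype fins from 32105 annotated genes. Of these, 11686 reached a mean of 5 CPM, the count scaled to a common library total, in uninjured wildtype fins. A gene entered the set if it reached that level, if log2(mean CPM + 0.5) was lower by 2.5 or more at 1 day post-amputation (dpa), and if the 4 dpa value lay less than 1 log2 unit from the 0 dpa value. A drop of that size at 1 dpa was seen in 376 genes, whatever their 4 dpa level. The wildtype values therefore define the set and are given here as a description, with no test. The changes of the genes in fosl1a mutant fins and in sorted cells were measured in libraries that played no part in the choice. The mutant and wildtype fin libraries were in 1 fit, so the mutant tests share their estimate of the spread with the wildtype libraries.

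The unsorted libraries came from adult fins of wildtype fish and of fosl1aKO fish, mutants made by CRISPR of fosl1a, the gene of the AP-1 transcription factor subunit Fra1. Each genotype was sampled as uninjured fin at 0 dpa and as blastema at 1 and 4 dpa, with 2 libraries a group and 12 in all. The later days are thus new growth set against intact fin, not 1 tissue followed over time. Words such as lowered, raised and recovery below refer to that comparison. The study describes its regenerates as mixtures of blastema and wound epidermis, and several mutant alleles were made. The labels do not name the allele, and the legend to the study's expression plots gives the mutant as fosl1a tw1/tw1, set beside wildtype littermates. The sorted libraries came from fish carrying the transgene Tg(sp7:EGFP), in which the sp7 promoter drives EGFP in differentiating and mature osteoblasts. Cells with EGFP (sp7+) and without it (sp7-) were sorted from pooled uninjured fins at 0 dpa and pooled blastemas at 4 dpa, again with 2 libraries a group and 8 in all, and both populations of a replicate came from the same fins. All mean values, fold changes and standard errors (SE) below rest on n = 2 libraries a group, and nothing in the labels says that the 2 unsorted libraries of a group came from separate animals, so p-values measure the spread between these samples, which may be technical.

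The fin is a fan of bony rays. Osteoblasts line the bone segments, fibroblasts and vessels fill the space between the paired hemirays, tendons and ligaments bind the rays at their base and joints, and a layered epidermis covers them. After amputation the wound is closed by epidermis, and within days a blastema of proliferating cells, including osteoblasts that have left their mature state, forms beneath it and then makes new bone and connective tissue.

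By role, the set held 7 collagens, 17 other matrix proteins, 3 tendon genes, 5 transcription factors, 18 signals, receptors or antagonists, 10 enzymes or carriers, 9 adhesion or intracellular proteins and 23 genes given no role. These roles were assigned after the members were known. The genes mkxa and scxa, which encode transcription factors, were counted with the tendon genes and not with the 5 transcription factors. Symbols were available for 87 of the 92 genes, and symbols in capitals are human-style names from a name table that do not say which zebrafish duplicate is meant. The median member stood at 21.9 CPM in wildtype fins at 0 dpa, at 2.17 CPM at 1 dpa and at 17.2 CPM at 4 dpa. Levels ran over a wide range. The collagen X gene COL10A1, a product of bone-forming cells in fish, had the highest level, with 3097 and 4349 CPM in the wildtype libraries at 0 dpa, 50.6 and 73.8 CPM at 1 dpa and 6456 and 4824 CPM at 4 dpa. The next were col5a3b (956 and 1083 CPM at 0 dpa), the betaine-homocysteine methyltransferase gene BHMT, col5a2b, the proteoglycan gene LUM, the selenium carrier gene selenop, DMGDH and POSTN. All members summed to 9136 and 11303 CPM in the wildtype libraries at 0 dpa, 671 and 598 CPM at 1 dpa and 12604 and 11349 CPM at 4 dpa.

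The members nearest the threshold of 2.5 were dap1b, SELENBP1 and DIO1 on the inside, with wildtype differences of -2.51 log2 units each, and inhbb (-2.499), capn12 (-2.495) and a tnw gene (ENSDARG00000097594, -2.49) on the outside. A different gene that carries the same symbol tnw (ENSDARG00000024829) was a member, and tnw below means that gene. At the recovery limit, ccl38a.4 (-0.98) and si:dkey-1c7.3 (-0.99) lay inside at 4 against 0 dpa, and arid6 (-1.01) and si:ch211-246i5.5 (-1.01) lay outside. The largest wildtype differences at 1 dpa were those of COL10A1 (-5.89) and of mstnb (-5.40), a myostatin gene of the TGF-beta family.

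Total counts ran from 10194983 to 31507208 in the unsorted libraries and from 28906309 to 50312755 in the sorted ones. The targeted gene fosl1a stood at 120 and 128 CPM in wildtype fins at 1 dpa and at 36.8 and 45.5 CPM in mutant fins, and at 0 dpa at 2.89 and 3.82 CPM in wildtype and 13.8 and 8.05 CPM in mutant fins. Replicate 1 of the mutant at 0 dpa stood apart. It had the lowest total and a correlation of 0.956 with its partner, against 0.985 to 0.993 in the other fin groups. Between the mutant 0 dpa libraries 17 members differed by over 2-fold, where 16.3% of all genes tested did. Of these, 14 were lower in replicate 1, and 34 members were lower there by any amount. In sp7+ cells at 0 dpa 37 members differed by over 2-fold between the replicates, 36 of them lower in replicate 1, where 5.92% of all genes tested differed so. In the other groups 2 to 6 members did, where 0.172% to 2.36% of all genes tested did. The gene behind the sort, sp7, stood at 23 to 27.7 CPM in sp7+ and 0.127 to 0.204 CPM in sp7- cells at 0 dpa. The sp7+ cells at 0 dpa also held other cells' transcripts, with the keratin gene krt5 at 14235 to 15920 CPM, below its 54187 to 61024 CPM in sp7- cells, and the antigen-presentation gene cd74a at 10408 to 13180 CPM, above its 2869 to 2975 CPM in sp7- cells. The leukocyte gene ptprc stood at 0.984 to 3.53 CPM in sp7+ and 9.997 to 15.9 CPM in sp7- cells.

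In the mutant, most of the set was lowered at 1 dpa as well. Of the 92 genes, 76 were lowered by more than 2-fold at 1 against 0 dpa (82.6%, where 5.24% of the 20157 genes tested were lowered), and none was raised (0, where 4.78% of all genes were; 0 also at an unadjusted p under 0.05 and 0 by DESeq2). The median change was -2.62 log2 units (quartiles -3.14 and -2.01, range -5.36 to 0.08), beside a median of -0.01 over all genes tested. Both 1 dpa libraries lay below both 0 dpa libraries for 87 of the 92 genes, where 28.9% of all genes did, and the groups overlapped for the other 5. The other matrix proteins were lowered without exception (17 of 17, median -2.61), as were the tendon genes (3 of 3, median -3.92), followed by signals, receptors and antagonists (16 of 18, median -2.54), adhesion and intracellular proteins (8 of 9, median -2.30), enzymes and carriers (8 of 10, median -2.98), collagens (5 of 7, median -3.47), transcription factors (3 of 5, median -2.02) and genes without a role (16 of 23, median -2.61). The tests were edgeR's quasi-likelihood test against a change of 2-fold, and p-values were adjusted by Benjamini-Hochberg over all genes tested. The count was 81 without replicate 1 and 66 without replicate 2 of the mutant at 0 dpa, and 56 of the 76 genes were called whichever mutant library was left out. In a bulk fin library, fewer cells of a type and less RNA per cell cannot be told apart.

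**Figure D1:**
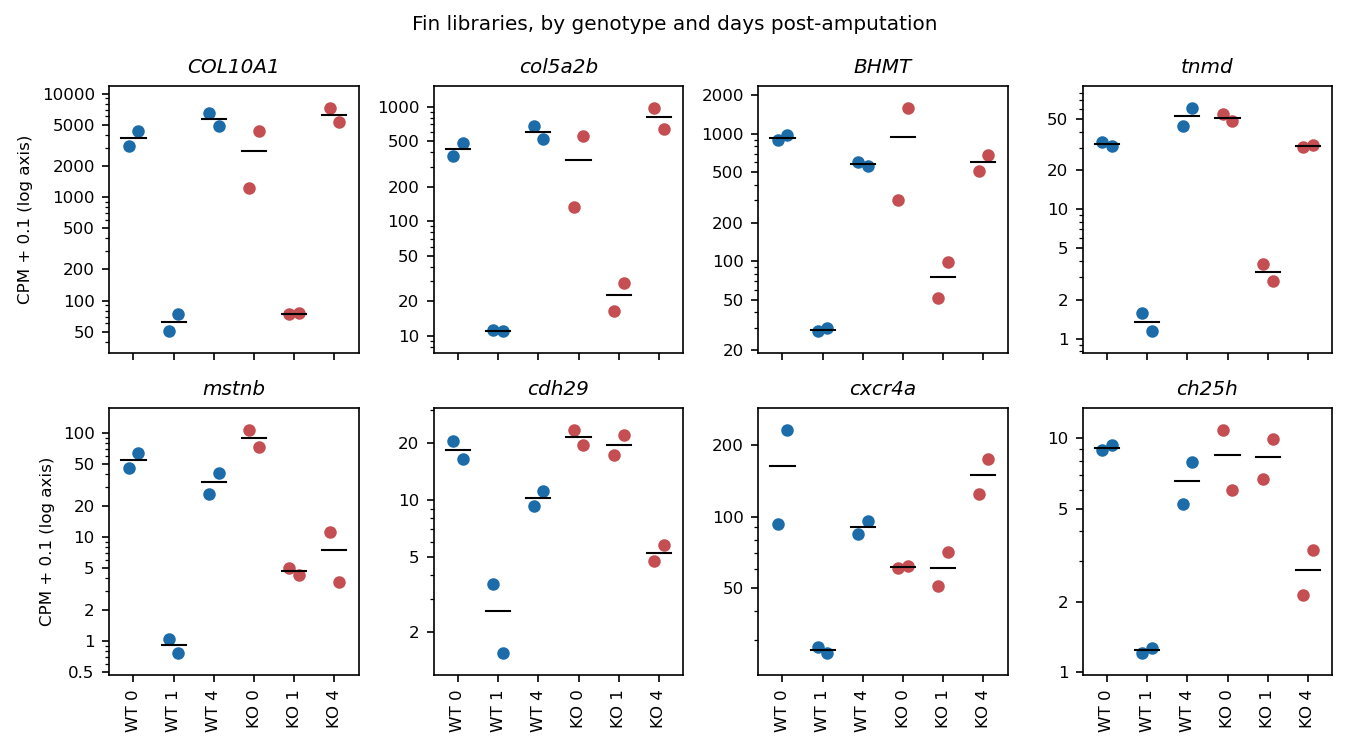
CPM + 0.1 on a log axis for 8 of the 92 genes in the 12 unsorted fin libraries, by genotype (WT, wildtype; KO, fosl1a mutant) and days post-amputation. Points are libraries and bars are means of 2 libraries. COL10A1, col5a2b, BHMT, tnmd and mstnb are low at 1 dpa in both genotypes. The 1 dpa points of cdh29, cxcr4a and ch25h lie below the 0 dpa points in wildtype fins, whose values chose the genes. In the mutant the ranges of these days overlap (17.1 and 21.8 CPM of cdh29 at 1 dpa).

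Of the 7 collagens, 5 were lowered at 1 dpa in the mutant. In the mutant, COL10A1 stood at 1222 and 4303 CPM at 0 dpa, at 73.3 and 74.8 CPM at 1 dpa and at 7204 and 5274 CPM at 4 dpa. Every 1 dpa library lay more than 10-fold below every library of the other days. The fitted change at 1 against 0 dpa was -5.36 ± 0.69 log2 units (SE, adjusted p = 0.00061), and at 4 against 1 dpa it was 6.54 ± 0.72 (adjusted p = 0.000203). The minor fibrillar collagen gene col5a2b followed the same course, with 132 and 550 CPM at 0 dpa, 16.4 and 28.8 CPM at 1 dpa and 969 and 642 CPM at 4 dpa. The 1 dpa libraries were below all others and the 4 dpa libraries above all others. Its changes were -4.05 ± 0.70 (adjusted p = 0.00493, and 0.0509 without replicate 1 at 1 dpa) and 5.28 ± 0.74 (adjusted p = 0.00105). The collagen VI gene col6a4a was even between replicates, at 107 and 101 CPM, then 8.52 and 10.1 CPM, then 272 and 195 CPM. It was lowered by -3.47 ± 0.33 (adjusted p = 0.000187) and raised by 4.78 ± 0.35 (adjusted p = 1.81e-05). The fibril-associated COL21A1 moved alike, by -3.45 ± 0.52 (adjusted p = 0.00291) and 4.88 ± 0.55 (adjusted p = 0.000272). COL8A1, a short-chain collagen gene, was lowered by -3.76 ± 0.77 (adjusted p = 0.0162), a call lost in 3 of 6 fits that each left out 1 mutant library (adjusted p = 0.079 without replicate 2 at 0 dpa, 0.0756 without replicate 1 at 1 dpa and 0.112 without replicate 2 at 1 dpa). The size of these drops turned on the uneven 0 dpa libraries. Without replicate 2 at 0 dpa the change was -3.76 for COL10A1, -2.24 for col5a2b and -2.12 for COL21A1, and without replicate 1 it was -6.12, -4.84 and -4.14.

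The remaining collagens gave no call at 1 dpa in the mutant. col5a3b, the second most abundant member, stood at 519 and 1164 CPM at 0 dpa, at 219 and 344 CPM at 1 dpa and at 607 and 354 CPM at 4 dpa. Its 1 dpa libraries were the lowest, but the 2 libraries at 0 dpa differed by more than 2-fold from each other. The change was -1.66 ± 0.49 (adjusted p = 0.209), next to wildtype libraries at 956 and 1083 CPM at 0 dpa and 147 and 103 CPM at 1 dpa. The fibril-associated col14a1b had a change of -1.48 ± 0.46 (adjusted p = 0.309).

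All 3 tendon genes were lowered at 1 dpa and raised again at 4 dpa in the mutant. tnmd encodes tenomodulin, a membrane protein of mature tendon cells, and mkxa and scxa encode the tendon transcription factors Mohawk and Scleraxis. In the mutant tnmd stood at 54.5 and 47.9 CPM at 0 dpa, 3.70 and 2.69 CPM at 1 dpa and 30.33 and 31.3 CPM at 4 dpa. The replicates lay close together and no 2 days overlapped. The change was -4.0 ± 0.22 at 1 against 0 dpa (adjusted p = 7.6e-06) and 3.41 ± 0.21 at 4 against 1 dpa (adjusted p = 1.31e-05). mkxa was lowered by -3.92 ± 0.33 (adjusted p = 7.22e-05) and raised by 2.97 ± 0.33 (adjusted p = 0.00078), and scxa was lowered by -3.20 ± 0.32 (adjusted p = 0.000322) and raised by 3.40 ± 0.32 (adjusted p = 0.000155). The calls of all 3 genes held whichever mutant library was left out.

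Among the other matrix genes, POSTN encodes periostin, a matricellular protein of connective tissue. It stood at 369 and 268 CPM in the mutant at 0 dpa, at 57.3 and 44.5 CPM at 1 dpa and at 136 and 121 CPM at 4 dpa. The 4 dpa libraries lay between those of the other days without reaching them. Its changes were -2.61 ± 0.19 (adjusted p = 6.88e-05) and 1.48 ± 0.19 (adjusted p = 0.0331), the latter not called without replicate 2 at 1 dpa (adjusted p = 0.192) or replicate 1 at 4 dpa (adjusted p = 0.254). The small leucine-rich proteoglycan genes, whose products coat and space collagen fibrils, were all lowered at 1 dpa, LUM by -2.01 ± 0.21 (adjusted p = 0.00158), FMOD by -3.19 ± 0.24 (adjusted p = 4.64e-05) and BGN by -2.95 ± 0.36 (adjusted p = 0.00134). None of these proteoglycan genes passed the test at 4 against 1 dpa, where their changes were 1.43, 1.19 and 1.39. MATN4, a matrilin gene of cartilage and other filamentous matrix, was lowered by -3.55 ± 0.27 (adjusted p = 4.47e-05) and raised again by 2.75 ± 0.27 (adjusted p = 0.000332), and the tenascin gene tnw by -2.29 ± 0.24 (adjusted p = 0.000848) and 2.62 ± 0.24 (adjusted p = 0.000276).

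The matrix genes of basement membrane and cell contact followed. lamc3, a laminin chain gene, stood at 38.9 and 26.8 CPM in the mutant at 0 dpa, 7.59 and 5.22 CPM at 1 dpa and 45.7 and 35.4 CPM at 4 dpa. The 1 dpa libraries were the lowest and the other days overlapped. It was lowered by -2.33 ± 0.23 (adjusted p = 0.000515) and raised by 2.81 ± 0.23 (adjusted p = 8.92e-05). The thrombospondin gene thbs2a was lowered by -2.31 ± 0.31 (adjusted p = 0.00335) and had a change of 1.47 ± 0.30 at 4 against 1 dpa (adjusted p = 0.15). ITIH5, whose product binds hyaluronan, was lowered by -3.08 ± 0.29 (adjusted p = 0.000218) and was still lower at 4 than at 0 dpa by -1.75 ± 0.25 (adjusted p = 0.0132, and 0.0909 without replicate 2 at 4 dpa). NDNF, a secreted fibronectin type III domain gene, stood at 74.8 and 56.8 CPM at 0 dpa, 10.6 and 10.03 CPM at 1 dpa and 29.9 and 23.8 CPM at 4 dpa, a drop of -2.65 ± 0.25 (adjusted p = 0.000333).

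Of the transcription factor genes, tbx18, LHX9 and osr1 were lowered at 1 dpa in the mutant. LHX9, a LIM-homeobox gene, stood at 4.12 and 5.46 CPM at 0 dpa, 1.78 and 0.775 CPM at 1 dpa and 9.03 and 9.09 CPM at 4 dpa. The 3 days did not overlap. Its drop was -2.02 ± 0.36 (adjusted p = 0.0243, and 0.237 without replicate 2 at 0 dpa and 0.232 without replicate 2 at 1 dpa) and its rise 2.99 ± 0.35 (adjusted p = 0.000848). osr1 was lowered by -2.02 ± 0.34 (adjusted p = 0.0167, and 0.0625 to 0.111 in the 3 leave-outs that lost the call). The forkhead gene foxq1b stood at 111 and 128 CPM at 0 dpa, 19.3 and 39.8 CPM at 1 dpa and 44.8 and 71.1 CPM at 4 dpa, with the 3 days apart and 1 dpa lowest, and had a change of -2.01 ± 0.47 at 1 dpa (adjusted p = 0.0693).

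Among the signals, mstnb had the second largest drop in the mutant. It stood at 107 and 73.0 CPM at 0 dpa, at 4.95 and 4.24 CPM at 1 dpa and at 11.1 and 3.6 CPM at 4 dpa. All 4 libraries after amputation lay far below both uninjured ones, and the 4 dpa libraries spanned the 1 dpa ones. The change at 1 dpa was -4.25 ± 0.49 (adjusted p = 0.000384) and that at 4 against 1 dpa 0.85 ± 0.46 (adjusted p = 0.935). TNFSF10, a death-receptor ligand of the TNF family, went from 30.9 and 37.1 CPM to 5.75 and 4.65 CPM and back to 28.9 and 36.1 CPM. It was lowered by -2.75 ± 0.25 (adjusted p = 0.000209) and raised by 2.77 ± 0.25 (adjusted p = 0.000169). The Wnt receptor gene FZD7 was lowered by -2.74 ± 0.23 (adjusted p = 0.000146), the Wnt amplifier RSPO1 by -3.01 ± 0.32 (adjusted p = 0.000451), the secreted Wnt modulator SFRP2 by -1.88 ± 0.29 (adjusted p = 0.0175) and the Hedgehog co-receptor gene GAS1 by -3.43 ± 0.29 (adjusted p = 9.98e-05). SFRP2 was not called without replicate 2 at 0 dpa (adjusted p = 0.0763) or replicate 2 at 1 dpa (adjusted p = 0.124). At 4 against 1 dpa FZD7, SFRP2, GAS1 and RSPO1 were all raised, by 2.42, 2.34, 2.69 and 1.84, and RSPO1 lost that call without replicate 1 at 1 dpa, replicate 2 at 1 dpa or replicate 1 at 4 dpa (adjusted p = 0.067, 0.154 and 0.271).

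Of the 10 enzymes and carriers, 8 were lowered at 1 dpa in the mutant. BHMT and DMGDH encode consecutive steps of betaine breakdown, which passes methyl groups to homocysteine. In the mutant BHMT stood at 305 and 1587 CPM at 0 dpa, 51.6 and 99.4 CPM at 1 dpa and 513 and 686 CPM at 4 dpa. The 1 dpa libraries were the lowest, and the uninjured libraries differed by over 5-fold, replicate 1 being the lower. The changes were -3.79 ± 0.72 (adjusted p = 0.00909) and 3.08 ± 0.70 (adjusted p = 0.0306), of which the first was lost without replicate 2 at 0 dpa (-1.71, adjusted p = 0.0694) or replicate 1 at 1 dpa (-3.35, adjusted p = 0.0827) and the second without any of the 1 or 4 dpa libraries (adjusted p = 0.0634 to 0.181). DMGDH moved with it, by -3.85 ± 0.69 (adjusted p = 0.00662, and 0.0649 without replicate 1 at 1 dpa), and by -1.88 and -4.67 without replicate 2 and replicate 1 at 0 dpa. Over all 20 libraries the ratio of BHMT to DMGDH stayed between 3.49 and 4.31, the most constant ratio of the 4186 pairs of members. The genes are neighbours in the RefSeq annotation (GRCz12tu), the only neighbouring pair found among the 75 members matched there, and a read pair overlapping more than 1 gene was counted for each, so the share of common reads was not tested. The next most constant pair was col14a1b and si:zfos-632h11.8. HGD, of tyrosine breakdown, was lowered by -3.72 ± 0.31 (adjusted p = 6.1e-05) and raised by 2.18 ± 0.29 (adjusted p = 0.00423), and selenop by -2.99 ± 0.29 (adjusted p = 0.000243) and 4.04 ± 0.30 (adjusted p = 2.19e-05).

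The 0 and 1 dpa libraries of cdh29, ch25h and cxcr4a overlapped in the mutant. The cadherin gene cdh29 stood at 23.3 and 19.4 CPM at 0 dpa and at 17.1 and 21.8 CPM at 1 dpa, and then at 4.66 and 5.69 CPM at 4 dpa. The libraries of the first days overlapped and the 4 dpa libraries lay below them. The rule fixed a low at 1 dpa in wildtype fins for every member, and the genotypes were not tested against each other. Wildtype libraries of cdh29 were at 20.2 and 16.3, then 3.50 and 1.46, then 9.18 and 11.1 CPM. The mutant change was -0.11 ± 0.27 at 1 against 0 dpa and -1.80 ± 0.28 at 4 against 1 dpa (adjusted p = 0.0239), the only member lowered there, and that call was lost without replicate 2 at 1 dpa (adjusted p = 0.17) or either 4 dpa library (adjusted p = 0.14 and 0.0727). ch25h, which encodes cholesterol 25-hydroxylase, stood at 10.8 and 5.94 CPM at 0 dpa, 6.60 and 9.87 CPM at 1 dpa and 2.03 and 3.23 CPM at 4 dpa in the mutant. Its wildtype libraries were at 8.86 and 9.23, then 1.11 and 1.16, then 5.14 and 7.82 CPM, again lowest at 1 dpa by the rule. The chemokine receptor gene cxcr4a was flat in the mutant at 60.7 and 61.6 CPM and then 50.7 and 70.8 CPM, before 124 and 175 CPM at 4 dpa, and in wildtype fins at 93.2 and 233, 28.0 and 26.5 and 84.4 and 95.6 CPM. The 1 dpa libraries of IRX5, an Iroquois transcription factor gene, lay below its 0 dpa libraries, but its change of -1.41 ± 0.20 missed the test against 2-fold (adjusted p = 0.0712). A further member, si:dkeyp-1h4.8, rested on single wildtype libraries (0 and 24.8 CPM at 0 dpa, 16.2 and 0 CPM at 4 dpa) and had 0 counts in all 6 mutant libraries, where a count of 0 allows up to 0.0850 CPM at 0 dpa, 0.0870 CPM at 1 dpa and 0.0566 CPM at 4 dpa. It held 20.8 to 95 CPM in every sorted library.

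**Figure D2:**
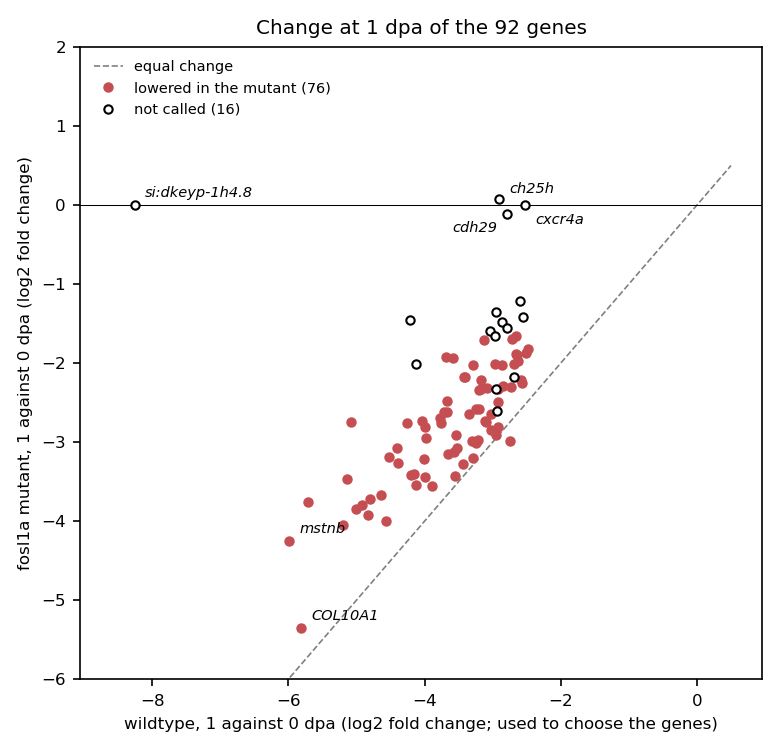
Fitted log2 fold change at 1 against 0 dpa of the 92 genes, wildtype on the x axis and fosl1a mutant on the y axis, with filled points for the 76 genes lowered in the mutant and open points for the 16 not called. The dashed line marks equal change; the wildtype values chose the genes, and 91 of 92 points lie above the line.

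The fitted wildtype change at 1 dpa had a median of -3.29 and the mutant change one of -2.62, and the mutant value was nearer 0 for 91 of the 92 genes. The wildtype libraries had been used to pick large drops, so this side-by-side view carries no test of the genotypes. Across the 92 genes the 2 changes had a Pearson r of 0.46 and a Spearman rho of 0.70, and 0.74 and 0.75 over 91 genes without si:dkeyp-1h4.8, as a description over genes that share the same libraries. In levels, the median member stood at 22.6 CPM in the mutant at 0 dpa, 4.18 CPM at 1 dpa and 11.7 CPM at 4 dpa.

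Recovery in the mutant was uneven. At 4 against 1 dpa, 45 of the 92 genes were raised by more than 2-fold (48.9%, where 5.98% of all genes were) and cdh29 was lowered (1.09%, where 3.9% were). The median change was 1.64 log2 units (range -1.80 to 6.54), beside -0.11 over all genes, and for 73 genes both 4 dpa libraries lay above both 1 dpa libraries, where 31.6% of all genes did. By role the medians at 4 against 1 dpa ran from 4.78 for collagens (5 of 7 raised) and 3.40 for tendon genes (3 of 3) through 2.25 for enzymes and carriers (6 of 10), 1.74 for transcription factors (3 of 5), 1.62 for signals (8 of 18) and 1.57 for genes without a role (10 of 23) to 1.47 for other matrix (7 of 17) and 1.06 for adhesion and intracellular proteins (3 of 9). The transcription factor gene tbx18 had one of the fullest returns, from 8.63 and 10.8 CPM at 0 dpa to 1.25 and 1.40 CPM at 1 dpa and 22.3 and 21.5 CPM at 4 dpa. The days did not overlap and the order was 1, 0 and 4 dpa. It was lowered by -2.91 ± 0.29 and then raised by 4.16 ± 0.29 (adjusted p = 1.7e-05). These contrasts share the mutant 1 dpa libraries. Of the 46 calls, 30 held whichever mutant library was left out.

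Against the uninjured mutant level, 21 of the 92 genes were still lowered at 4 dpa (22.8%, where 8.06% of all genes were) and 2 were raised (2.17%, where 6.93% were). The median was -0.75, beside -0.01 over all genes, and the range was -3.52 to 2.48. The fitted wildtype median was -0.50, from libraries that the rule held near their 0 dpa level. Both 4 dpa libraries lay below both 0 dpa libraries for 60 members and above them for 15, where 34.1% and 29.1% of all genes did. The genes still lowered were 6 of 17 other matrix genes, 6 of 18 signals, 3 of 9 adhesion and intracellular proteins, 2 of 10 enzymes and 4 of 23 genes without a role, and no collagen, tendon gene or transcription factor (0 of 7, 0 of 3 and 0 of 5, with medians of 1.18, -0.60 and 0.33). In wildtype fins the fitted medians of collagens, tendon genes and transcription factors were 0.38, 0.48 and 0.17. The other wildtype medians were -0.33 for other matrix, -0.74 for signals, -0.43 for adhesion, -0.68 for enzymes and -0.54 without a role. The genotypes were not tested against each other. Calls here were fewer in some leave-outs. The count lowered was 12 without replicate 2 at 4 dpa, and the count raised was 1 without replicate 1 at 0 dpa, 8 without replicate 2 at 0 dpa and 0 without replicate 1 at 4 dpa. DESeq2 called 11 lowered and 1 raised.

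**Figure D3:**
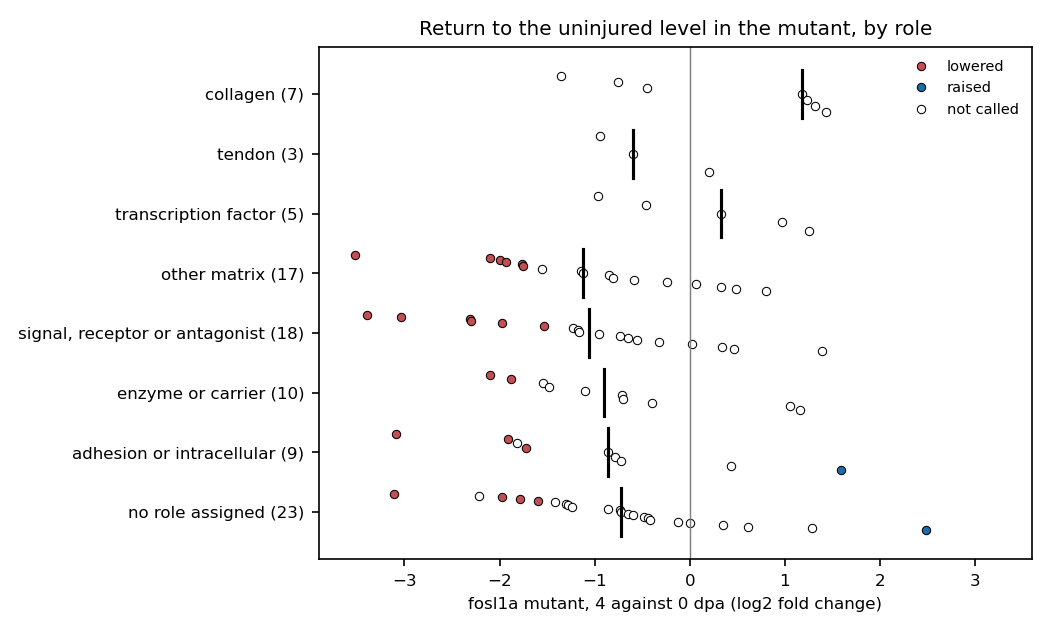
Fitted log2 fold change at 4 against 0 dpa in the fosl1a mutant for the 92 genes, by role with the number of genes in parentheses. Points are genes, filled where lowered (21) or raised (2) by more than 2-fold, and black bars are medians. The collagen median is 1.18 and the transcription factor median 0.33. The medians of the tendon, other matrix, signal, enzyme, adhesion and no-role groups lie below 0.

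The matrix genes still lowered at 4 dpa in the mutant were ucmaa, mfap5, FMOD, fndc1, cilp and ITIH5. ucmaa encodes a Gla-rich protein of cartilage matrix. It stood at 29.3 and 21.9 CPM at 0 dpa, 3.90 and 1.5 CPM at 1 dpa and 2.24 and 1.72 CPM at 4 dpa. The later days overlapped each other and lay below day 0. The wildtype mean at 4 dpa was held near that at 0 dpa by the rule, with libraries at 12 and 15.7 CPM. The change at 4 against 0 dpa was -3.52 ± 0.32 (adjusted p = 8.05e-05). The microfibril gene mfap5 stood at 47.9 and 28.0, 11.6 and 10.8 and 7.39 and 8.10 CPM, and was lower still at 4 dpa than at 1 dpa by its libraries. Its 4 against 0 dpa change was -2.10 ± 0.16 (adjusted p = 0.000129). FMOD was lowered by -2.0 ± 0.21 (adjusted p = 0.00126) and fndc1, a fibronectin type III domain gene, by -1.93 ± 0.29 (adjusted p = 0.00896, and 0.0893 without replicate 2 at 4 dpa). cilp, of cartilage intermediate layer, was lowered by -1.77 ± 0.36 (adjusted p = 0.0491), a call that held in 1 of 6 leave-outs, with adjusted p = 0.542 without replicate 1 at 0 dpa.

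Among the signals, mstnb was lowered at 4 against 0 dpa by -3.40 ± 0.46 (adjusted p = 0.00106). RGS5, a regulator of G-protein signalling known from pericytes, stood at 71.5 and 29.7 CPM at 0 dpa, 10.4 and 9.87 CPM at 1 dpa and 8.86 and 8.39 CPM at 4 dpa in the mutant. Both later days lay below both uninjured libraries with no return. The change at 4 against 0 dpa was -2.31 ± 0.27 (adjusted p = 0.00109), beside wildtype libraries at 58.5 and 33.9, 7.52 and 6.82 and 24.1 and 28.4 CPM. CXCL12, the chemokine ligand of CXCR4 receptors, stood at 164 and 100, 30.31 and 26.2 and 41.1 and 38.9 CPM. It was lowered at 4 dpa by -1.53 ± 0.22 (adjusted p = 0.0307), a call that held in 2 of 6 leave-outs, with adjusted p = 0.112 without replicate 1 at 0 dpa, 0.0648 without replicate 1 at 1 dpa, 0.0584 without replicate 1 at 4 dpa and 0.16 without replicate 2 at 4 dpa. The chemokine genes ccl20a.3 (-1.98 ± 0.30, adjusted p = 0.00845) and ccl38a.4 (-3.04 ± 0.63, adjusted p = 0.0157, and 0.0645 without replicate 1 and 0.112 without replicate 2 at 4 dpa) were also lowered. Of the enzymes, the deiodinase gene DIO1, which activates thyroid hormone, was lowered by -2.10 ± 0.25 (adjusted p = 0.00202) and masp1, a protease of the lectin pathway of complement, by -1.88 ± 0.26 (adjusted p = 0.00654, and 0.0576 without replicate 1 at 0 dpa and 0.0659 without replicate 2 at 4 dpa). The kinase gene dapk2b went from 13.9 and 7.93 to 1.02 and 1.23 CPM, a change of -3.09 ± 0.27 (adjusted p = 9.25e-05).

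The genes called raised by more than 2-fold at 4 against 0 dpa in the mutant were cdh7, a cadherin gene, and si:ch211-160j14.4. cdh7 stood at 17.2 and 18.7 CPM at 0 dpa, 3.43 and 3.93 CPM at 1 dpa and 52.2 and 48.0 CPM at 4 dpa. The 3 days were fully separate. Its 4 against 0 dpa change was 1.59 ± 0.23 (adjusted p = 0.0248, and 0.147 without replicate 1 at 0 dpa and 0.143 without replicate 1 at 4 dpa). si:ch211-160j14.4 stood at 2.16 and 7.46 CPM at 0 dpa and 32.6 and 23.6 CPM at 4 dpa, a change of 2.48 ± 0.48 (adjusted p = 0.0152, and 0.103 without replicate 1 at 4 dpa).

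Lists of tissue genes, each holding 5 of the members or fewer, did not change alike in the mutant. Of the osteoblast markers, 18 of 20 were matched, COL10A1 is a member, and in the mutant 0 were raised and 7 of 18 lowered at 1 against 0 dpa (median -1.15), and 11 raised and 0 lowered at 4 against 1 dpa (median 2.26). The summed osteoblast level was 16709 to 51470 CPM at 0 dpa, 11602 to 26733 CPM at 1 dpa and 94603 to 139485 CPM at 4 dpa in the mutant, and 43509 to 47582, 16388 to 22091 and 120919 to 142595 CPM in wildtype fins, with no marker at 0 in any group. Cartilage and joint matrix (21 genes tested) had 1 raised and 9 lowered at 1 dpa (median -1.54), with summed mutant levels of 3017 to 3606, 888 to 976 and 4306 to 6439 CPM. The members MATN4 and ucmaa were among the 9 lowered. The superficial epidermis list (10 genes, none of them members) summed to 20823 to 22736 CPM at 0 dpa, 29993 to 30327 CPM at 1 dpa and 10304 to 13547 CPM at 4 dpa. The keratin gene krt4 alone held 4587 to 6218 CPM of that sum at 0 dpa and 18284 to 19831 CPM at 1 dpa. At 1 dpa 1 of 10 was raised and 1 lowered, with a median change of -0.0045. The fibroblast list, which shares LUM, POSTN, CXCL12, mfap5 and FMOD with the set, had 2 raised and 7 lowered of 22 at 1 dpa (median -0.49). All 5 shared genes were among the 7 lowered. The sum of the fibroblast list was level between 0 and 1 dpa, at 4283 to 4874 CPM and 4465 to 5475 CPM, and stood at 9852 to 11614 CPM at 4 dpa. At 4 against 1 dpa 9 of the list were raised and 1 was lowered (median 1.37). Leukocyte markers (19 tested, none a member) summed to 2791 to 3118, 1034 to 1162 and 1393 to 1604 CPM in the mutant. Of these sums cd74a alone held 1595 to 1709 CPM at 0 dpa and 430 to 507 CPM at 1 dpa. At 1 against 0 dpa 0 of the leukocyte markers were raised and 2 were lowered (median -1.11). Their part in the members' changes was not tested.

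In functional lists, the elastic fibre and small leucine-rich proteoglycan genes had 1 raised and 10 lowered of 27 at 1 dpa in the mutant (median -1.48) and 13 raised and 0 lowered at 4 against 1 dpa (median 1.81), with LUM, FMOD and BGN shared with the set. The Wnt, BMP and Hedgehog antagonists had 2 raised and 8 lowered of 27 (median -1.55), then 10 raised and 0 lowered (median 1.54), with SFRP2 shared. Complement and coagulation genes had 1 raised and 4 lowered of 21 (median -0.31), then 3 raised and 6 lowered, with F10 and masp1 shared. Of the shared genes in these lists, LUM, FMOD, BGN, SFRP2 and masp1 were among those lowered at 1 dpa. Cholesterol synthesis, with 18 genes and no member, had 0 called in either direction at 1 dpa (median -0.54). Its sums in the uninjured mutant libraries were far apart, at 156 and 1242 CPM, and lay on both sides of the 322 to 396 CPM at 1 dpa. In wildtype fins the sums were 1256 to 4247 CPM at 0 dpa and 178 to 208 CPM at 1 dpa.

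In sorted cells the members were split between the populations. At 0 dpa, 13 of the 91 members tested were higher in sp7+ than sp7- cells by more than 2-fold (14.3%, where 9.56% of 18641 genes were) and 20 were lower (22%, where 8.44% were), with a median difference of -0.01. At 4 dpa, 15 were higher in sp7+ cells (16.5%, where 5.87% were) and 8 were lower (8.79%, where 3.14% were). The member not tested was ccl38a.4, at 0.148 CPM or less in every sorted library. A difference was called at both times for 17 members, at 0 dpa only for 16, at 4 dpa only for 6 and at neither time for 52, and being called at 1 time only was not a test of a change. The median member stood at 5.57 CPM in sp7+ and 4.51 CPM in sp7- cells at 0 dpa. The targeted gene fosl1a stood at 1114 to 1116 CPM in sp7+ and 1187 to 1249 CPM in sp7- cells at 0 dpa, beside 2.89 and 3.82 CPM in the wildtype fins. The sorted and unsorted tables came from separate experiments and were tested separately, and the part of dissociation and sorting in these levels was not tested.

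With the shared fins of a replicate as a block within each time point, 13 members were higher and 22 lower in sp7+ cells at 0 dpa, and 18 were higher and 14 lower at 4 dpa. The shares of all genes in that fit are not given. The 8 members lower in sp7+ cells at 4 dpa became 3 without replicate 1 and 2 without replicate 2 of sp7- cells at 4 dpa, 1 without replicate 1 of sp7+ cells at 4 dpa, and 13 without replicate 1 or without replicate 2 of sp7+ cells at 0 dpa, and DESeq2 called 3. The 15 that were higher became 10 without replicate 2 of sp7- cells at 4 dpa. Of the 33 calls at 0 dpa 25 and of the 23 calls at 4 dpa 11 held whichever sorted library was left out.

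**Figure D4:**
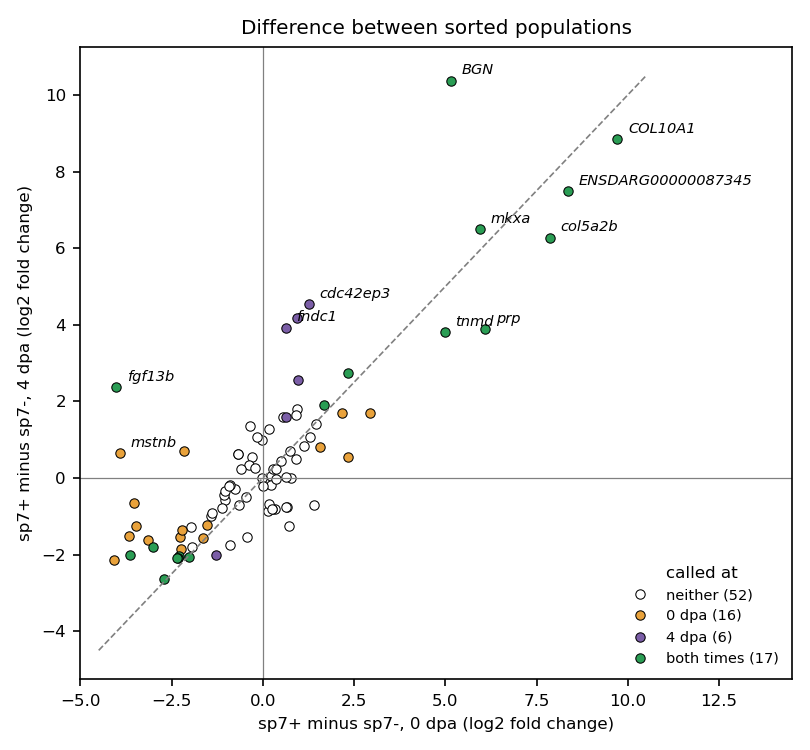
Fitted log2 difference between sp7+ and sp7- cells of the 91 members tested, at 0 dpa on the x axis and 4 dpa on the y axis, coloured by when the difference passed the test against 2-fold (both times 17, 0 dpa only 16, 4 dpa only 6, neither 52). The dashed line marks equal differences; the collagen genes COL10A1 and col5a2b, the tendon genes mkxa and tnmd, and prp lie high on both axes, and the BGN value at 4 dpa rests on 0 counts in sp7- cells.

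The members higher in sp7+ cells at both times were BGN, COL10A1, ENSDARG00000087345, NDNF, cdh7, col5a2b, mkxa, prp and tnmd. COL10A1 stood at 2468 and 6787 CPM in sp7+ and 2.96 and 8.21 CPM in sp7- cells at 0 dpa, and at 16048 and 18590 CPM and 50.3 and 29.3 CPM at 4 dpa. No sp7- library came within 10-fold of any sp7+ library. The difference was 9.72 ± 0.66 at 0 dpa (adjusted p = 8.66e-07) and 8.84 ± 0.64 at 4 dpa (adjusted p = 2.47e-06). col5a2b differed by 7.87 ± 0.49 (adjusted p = 4.79e-07) and 6.27 ± 0.45 (adjusted p = 2.69e-06), with 289 and 816 CPM in sp7+ and 2.19 and 2.56 CPM in sp7- cells at 0 dpa. The tendon factor gene mkxa stood at 1.63 and 9.89 CPM in sp7+ against 0.0255 and 0.148 CPM in sp7- cells at 0 dpa, and at 17.3 and 12.4 against 0.199 and 0.129 CPM at 4 dpa. It differed by 5.94 ± 0.81 (adjusted p = 0.000322) and 6.50 ± 0.73 (adjusted p = 0.000127). tnmd differed by 4.98 ± 0.46 (adjusted p = 1.57e-05) and 3.80 ± 0.42 (adjusted p = 0.000202), and scxa by 2.92 ± 0.48 at 0 dpa (adjusted p = 0.00311) and 1.68 at 4 dpa (adjusted p = 0.152). Without replicate 2 of sp7+ cells at 0 dpa the 0 dpa differences were 8.93 for COL10A1, 7.06 for col5a2b, 4.26 for mkxa, 4.04 for tnmd and 2.26 for scxa.

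BGN, the gene of the bone proteoglycan biglycan, was close to exclusive to sp7+ libraries. It stood at 1.32 and 4.43 CPM in sp7+ cells at 0 dpa and at 5.31 and 3.89 CPM at 4 dpa, against 0 and 0.148 CPM and then 0 and 0 CPM in sp7- cells. At 4 dpa 408 counts faced 0, at least 152-fold higher in sp7+ cells against a floor of 3 counts over the group. The gene ENSDARG00000087345, without a symbol, had 259 counts against 1 at 0 dpa, a ratio of 384 with a 95% counting interval of 68.3 to 15230, and 55 against 0 at 4 dpa, at least 20.5-fold higher. Such intervals and floors cover counting error only. prp stood at 50.9 and 142 CPM in sp7+ and 1.25 and 1.58 CPM in sp7- cells at 0 dpa, and at 379 and 525 and 24.4 and 39.37 CPM at 4 dpa. Its difference was 6.09 ± 0.50 at 0 dpa and 3.88 ± 0.43 at 4 dpa, with sp7+ above sp7- in every library. cdh7 was higher in sp7+ cells by 2.32 ± 0.31 (adjusted p = 0.00134) and 2.75 ± 0.30 (adjusted p = 0.000367).

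**Figure D5:**
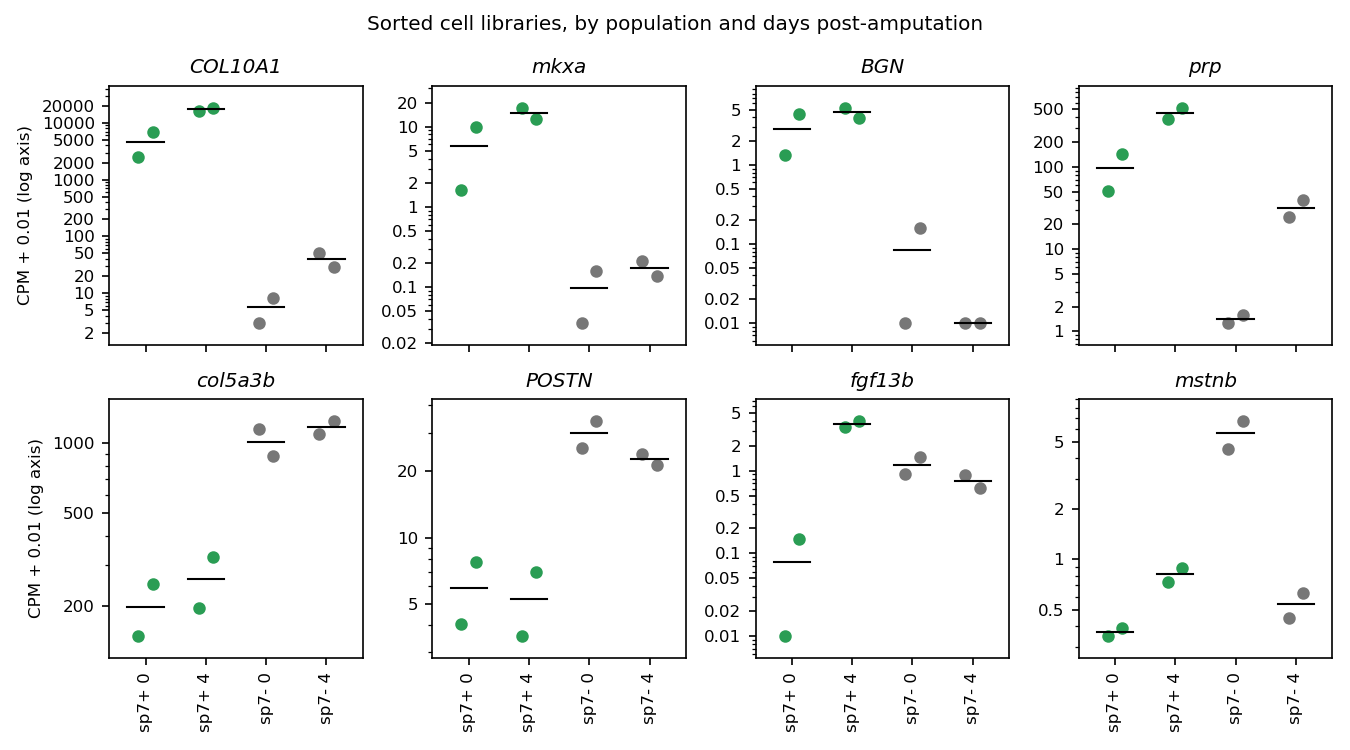
CPM + 0.01 on a log axis for 8 members in the 8 sorted libraries, by population and days post-amputation. Points are libraries and bars are means of 2 libraries; COL10A1, mkxa, BGN and prp are higher in sp7+ cells at both times, col5a3b and POSTN are higher in sp7- cells at both times, and fgf13b and mstnb change between the times in sp7+ and sp7- cells respectively.

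Members higher in sp7- cells included another abundant collagen. col5a3b stood at 149 and 248 CPM in sp7+ and 1154 and 879 CPM in sp7- cells at 0 dpa, and at 197 and 325 and 1094 and 1251 CPM at 4 dpa. The sp7- libraries were above all sp7+ libraries. The difference was -2.34 ± 0.34 at 0 dpa (adjusted p = 0.0021) and -2.09 ± 0.33 at 4 dpa (adjusted p = 0.0103, and 0.071 without replicate 2 of sp7- and 0.135 without replicate 1 of sp7+ cells at 4 dpa). POSTN differed by -2.31 ± 0.36 (adjusted p = 0.00355) and -2.04 ± 0.35 (adjusted p = 0.0184, and 0.0649 to 0.224 in the 3 leave-outs that lost the call), with 25.6 and 34.0 CPM in sp7- and 4.04 and 7.75 CPM in sp7+ cells at 0 dpa. RSPO1 differed by -2.01 ± 0.46 at 0 dpa (adjusted p = 0.0399) and -2.07 ± 0.43 at 4 dpa (adjusted p = 0.0425), each call lost in 4 of the 8 leave-outs (adjusted p up to 0.239 and 0.308). At 0 dpa alone the largest differences were those of si:ch211-210b2.3 (-4.09 ± 0.43, adjusted p = 6.5e-05), mstnb (-3.91 ± 0.39, adjusted p = 4.29e-05), cdh29 (-3.67 ± 0.53, adjusted p = 0.000974) and masp1 (-3.54 ± 0.35, adjusted p = 4.86e-05). fgf13b, of the intracellular FGF-like family, was lower in sp7+ cells at 0 dpa (-4.01 ± 0.69, adjusted p = 0.00278) and higher at 4 dpa (2.38 ± 0.42, adjusted p = 0.0126, and up to 0.13 in the 3 leave-outs that lost the call).

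By role, the tendon genes had a median difference of 4.98 at 0 dpa (3 of 3 higher in sp7+ cells) and 3.80 at 4 dpa (2 of 3). Collagens were 2 higher and 1 lower of 7 at both times. Adhesion and intracellular genes had 1 higher and 5 lower of 9 at 0 dpa (median -2.22) and 3 higher and 1 lower at 4 dpa. Of the 10 enzymes and carriers 0 were higher and 2 lower at 0 dpa and none was called at 4 dpa (median -0.67). Osteoblast markers summed to 16244 to 43802 CPM in sp7+ and 11699 to 12671 CPM in sp7- cells at 0 dpa, and to 172993 to 233364 and 85542 to 85612 CPM at 4 dpa. The superficial epidermis list summed to 45958 to 49201 CPM in sp7+ and 6872 to 10682 CPM in sp7- cells at 0 dpa, with 7 of 10 genes higher and 0 lower in sp7+ cells (median 2.29), while of the basal epidermis list 0 were higher and 9 of 9 lower (median -3.53). The leukocyte list summed to 15827 to 18391 and 4024 to 4364 CPM, but only cd74a and cd74b of its 17 tested genes were higher in sp7+ cells and 6 were lower (ptprc, LCP1, CORO1A, ccr9a, lyz and marco), with a median of -1.15. The part of these other cells in the members' differences at 0 dpa was not tested.

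Between 0 and 4 dpa the members moved in both directions in sorted cells. In sp7+ cells 12 of 91 members were raised (13.2%, where 14.4% of all genes were) and 8 were lowered (8.79%, where 13.1% were), shares near those of all genes, and the median was 0.06, beside 0.16 over all genes. In sp7- cells 12 were raised (13.2%, where 8.85% were) and 14 lowered (15.4%, where 8.26% were), with a median of -0.45, beside -0.02 over all genes. These medians depend on scaling. On column totals all genes shifted by 0.49 in sp7+ and 0.52 in sp7- cells relative to the fitted values, and the members' medians became 0.39 and 0.08, and with DESeq2's size factors -0.08 and -0.50. The counts in sp7+ cells turned on single libraries. The direction with more calls changed with the 0 dpa replicate left out. The members' median in sp7+ cells was -0.25 without replicate 1 and 0.43 without replicate 2 at 0 dpa. In sp7- cells the 12 raised became 8 in 1 leave-out. Calls that held whichever sorted library was left out were 7 of 20 in sp7+ and 14 of 26 in sp7- cells.

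Members raised in both populations included patterning and matrix genes. tbx18 stood at 1.93 and 2.56 CPM in sp7+ cells at 0 dpa and 31.6 and 24.2 CPM at 4 dpa, and at 1.86 and 1.44 and 24.6 and 17.5 CPM in sp7- cells. The 4 dpa libraries were far above the 0 dpa libraries in each population. The changes were 3.09 ± 0.27 (adjusted p = 5.66e-05) and 3.12 ± 0.27 (adjusted p = 5.03e-05). LHX9 was raised by 1.81 ± 0.33 (adjusted p = 0.0175) and 1.80 ± 0.33 (adjusted p = 0.0238), calls lost in 2 leave-outs in sp7+ cells (adjusted p = 0.158 and 0.0615) and 4 in sp7- cells (adjusted p = 0.0533 to 0.139). cdh7 was raised by 2.45 ± 0.30 (adjusted p = 0.000538) and 2.03 ± 0.31 (adjusted p = 0.00604), and nrip2, of a nuclear receptor partner, by 2.61 ± 0.43 (adjusted p = 0.00328) and 1.74 ± 0.35 (adjusted p = 0.0412, and up to 0.313 in the 6 leave-outs that lost the call). In sp7- cells col5a2b rose by 3.63 ± 0.41 (adjusted p = 0.00023), from 2.19 and 2.56 to 40.9 and 44.7 CPM, and in sp7+ cells by 2.04 ± 0.37 (adjusted p = 0.00982, and 0.084 without replicate 1 at 0 dpa and 0.0677 without replicate 2 at 4 dpa), from 289 and 816 to 2780 and 3561 CPM. COL10A1 rose in sp7- cells by 2.29 ± 0.48 (adjusted p = 0.0204, and 0.137 without replicate 1 at 0 dpa and 0.134 without replicate 1 at 4 dpa), while in sp7+ cells its change was 1.41 ± 0.46 (adjusted p = 0.186). TNFSF10 rose in sp7- cells by 2.60 ± 0.54 (adjusted p = 0.0153, and 0.135 without replicate 2 at 0 dpa and 0.102 without replicate 1 at 4 dpa), at 1.61 CPM or less in every sorted library.

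Members lowered at 4 dpa in sp7- cells were led by si:ch211-210b2.3 (-3.94 ± 0.41, adjusted p = 0.000114) and mstnb. mstnb stood at 4.54 and 6.71 CPM in sp7- cells at 0 dpa and 0.437 and 0.623 CPM at 4 dpa, and at 0.339 and 0.381 and 0.727 and 0.884 CPM in sp7+ cells. The sp7- 0 dpa libraries stood above all 6 others. The sp7- change was -3.93 ± 0.35 (adjusted p = 4.73e-05). fndc1 was lowered in sp7- cells by -3.65 ± 0.36 (adjusted p = 9.26e-05), ucmaa by -3.16 ± 0.49 (adjusted p = 0.00233), foxq1b by -2.70 ± 0.31 (adjusted p = 0.000487), cilp by -2.67 ± 0.28 (adjusted p = 0.000261) and mfap5 by -2.47 ± 0.41 (adjusted p = 0.00536, and 0.0508 without replicate 1 at 4 dpa). In sp7+ cells si:ch211-159i8.4 was lowered by -2.71 ± 0.59 (adjusted p = 0.0127, and 0.207 without replicate 2 at 0 dpa and 0.104 without replicate 1 at 4 dpa), mfap5 by -2.16 ± 0.44 (adjusted p = 0.0137, and 0.178 without replicate 2 at 0 dpa and 0.0951 without replicate 2 at 4 dpa) and si:dkey-1c7.3 by -2.12 ± 0.30 (adjusted p = 0.00251).

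The mutant fins and the sorted cells share no library, so their lists of lowered members can be set side by side. Of the 21 members lowered at 4 against 0 dpa in the mutant, 7 were also lowered in sp7- cells at 4 dpa, which is 33.3% of the mutant list and 50% of the 14 lowered in sp7- cells. They were mstnb, ucmaa, fndc1, cilp, mfap5, masp1 and dapk2b. In sp7+ cells 3 of the 21 were lowered, 14.3% of the mutant list and 37.5% of the 8 lowered there (mfap5, si:ch211-159i8.4 and ENSDARG00000087345). None of the 21 was raised in either population, 0 of 12 each. The 2 members raised in the mutant, cdh7 and si:ch211-160j14.4, were raised in both populations. These are counts, and whether the overlap exceeds that of other genes was not tested.

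In the main fit, without the shared fins as a block, the change from 0 to 4 dpa differed between the populations for 9 of the 91 members. By the interaction term of edgeR's quasi-likelihood test, 7 were more positive in sp7+ cells (7.69%, where 4.66% of all genes were) and 2 more negative (2.2%, where 3.25% were). The counts with the block and by DESeq2 are given below without the share of all genes. They therefore do not show whether the members differ from other genes. fgf13b stood at 0 and 0.138 CPM in sp7+ cells at 0 dpa and 3.37 and 4.02 CPM at 4 dpa, and at 0.893 and 1.46 and 0.875 and 0.601 CPM in sp7- cells. It was close to undetected in sp7+ cells at 0 dpa and highest there at 4 dpa. The difference in change was 6.39 ± 0.79 log2 units (adjusted p = 0.00174). It was 4.55 ± 0.54 for mstnb (adjusted p = 0.0014), 3.29 ± 0.46 for fndc1 (adjusted p = 0.0028), 2.89 ± 0.46 for masp1 (adjusted p = 0.00588) and 2.85 ± 0.38 for cilp (adjusted p = 0.0024), and these 5 calls held whichever library was left out. The Cdc42 effector gene cdc42ep3 differed by 3.29 ± 0.67 (adjusted p = 0.0157, and up to 0.0833 in the 3 leave-outs that lost the call). prp (-2.22 ± 0.58, adjusted p = 0.0387), tnw (-1.77 ± 0.46, adjusted p = 0.0372) and ppdpfa (1.22 ± 0.30, adjusted p = 0.0326) held in 1, 2 and 3 of the 8 leave-outs, with adjusted p up to 0.162, 0.135 and 0.159. With the shared fins as a block within time points 28 members passed this test, DESeq2 called 16, and single leave-outs gave 5 to 20, with 5 without either replicate of sp7- cells at 4 dpa, 6 without replicate 1 of sp7- cells at 0 dpa or either replicate of sp7+ cells at 4 dpa, and 16 and 20 without replicate 1 and replicate 2 of sp7+ cells at 0 dpa.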

How the data were processed

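Per the labels, sequence reads were demultiplexed with bcl2fastq, aligned to the zebrafish genome GRCz10 with STAR 2.5.2a and counted per gene with featureCounts 1.5.0, and the authors deposited raw counts for the 12 unsorted and the 8 sorted libraries as separate tables. Uniquely aligned pairs were counted without strand and for every gene they overlapped, so overlapping and near-identical genes may share or lose reads. Levels are CPM on column totals. Tests used edgeR 4.0.16 in R 4.3.3 on the counts, with TMM scaling and filterByExpr, 1 quasi-likelihood fit a table, a test against a 2-fold change (against no difference for the interaction), Benjamini-Hochberg adjustment over all genes tested and a false discovery rate of 0.05. The SE is the log2 fold change divided by the root of its F value and is left out where the unadjusted p is above 0.9. DESeq2 1.42.0, other filters, scalings and thresholds, leave-outs and blocks were alternatives. The scripts were tested on simulated data with known changes.

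The members and the gene lists were chosen with earlier results of these data known. The named genes were, among members with a symbol, the 8 highest in wildtype at 0 dpa, the 8 with the largest wildtype drop, those in a list, the 6 largest and 6 smallest mutant drops at 1 dpa, the 5 largest called differences a direction in each sorted comparison, those nearest the thresholds, and fosl1a. Other members that are named were chosen after their values were seen. Replicate numbers in the unsorted libraries were not taken as pairs, because the correlation of deviations did not pass 0.1 in every pair of groups. It was 0.11 to 0.44 in the 6 pairs among the 0 and 1 dpa groups and -0.26 to 0.094 in the 9 pairs with a 4 dpa group. In the sorted libraries both populations of a number came from the same fins, with correlations of 0.40 at 0 dpa and 0.18 at 4 dpa. The main sorted fit did not use this pairing, and counts with it as a block within time points are given beside the main ones.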

Additional observations from a re-analysis of the deposited data

Results flagged for a closer look

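The change from 0 to 4 dpa differed between sp7+ and sp7- cells for 9 members in the fit without the shared fins as a block. The test was the interaction term of edgeR's quasi-likelihood test. The sp7+ minus sp7- change was 6.39 log2 units for fgf13b, 4.55 for mstnb, 3.29 for fndc1, 3.29 for cdc42ep3, 2.89 for masp1, 2.85 for cilp, 1.22 for ppdpfa, -1.77 for tnw and -2.22 for prp. In 6 members both mutant libraries lay lower at 4 than at 1 dpa, while both wildtype libraries lay higher. The rule all but fixed that wildtype rise. The share of all genes with such a mutant drop is not given, so the count is no result about the members. Of these mutant changes only that of cdh29 was called. The fitted mutant change was -0.040 for ccl20a.3, -0.10 for RGS5, -0.40 for mfap5, -1.44 for ccl38a.4, -1.56 for ch25h and -1.80 for cdh29. The difference between the genotypes was not tested, because the wildtype libraries chose the members.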

How the results depend on the processing

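No call of a single gene reversed in an alternative. In sp7+ cells the direction with more calls at 4 against 0 dpa did change, and medians of the members in sorted cells changed sign. In sp7- cells the median at 4 against 0 dpa went from -0.45 to 0.08 on column totals, and in sp7+ cells from 0.06 to -0.08 with size factors and to -0.25 without replicate 1 at 0 dpa. With 1 library left out, the median difference of sp7+ from sp7- cells spanned -0.53 to 0.37 at 0 dpa and -0.10 to 0.14 at 4 dpa, and the interaction median -0.066 to 0.70. The rule gave 80 to 118 members with 1 wildtype library left out. With 1 library left out, the members lowered in the mutant at 1 against 0 dpa numbered 63 to 81, raised at 4 against 1 dpa 32 to 49, and lowered and raised at 4 against 0 dpa 12 to 21 and 0 to 8. In sp7+ cells 3 to 11 were lowered and 6 to 18 raised at 4 dpa, and in sp7- cells 10 to 17 and 8 to 14. Higher in sp7+ and in sp7- cells were 11 to 13 and 15 to 23 at 0 dpa and 10 to 17 and 1 to 13 at 4 dpa, and the interaction gave 5 to 20. A wildtype drop of 3 or more kept 39 members, with 35 lowered at 1 dpa, 23 raised at 4 against 1 dpa, 9 lowered and 0 raised at 4 against 0 dpa in the mutant, 4 lowered and 5 raised in sp7+ cells, 8 and 6 in sp7- cells, 6 higher in each population at 0 dpa, 9 and 3 at 4 dpa, and 5 in the interaction. A 2-fold filter after a test against no change gave 36 lowered and 7 raised at 4 against 0 dpa in the mutant, 17 and 20 in sp7+ cells, 23 and 20 in sp7- cells, and 24 higher in sp7+ and 20 in sp7- cells at 4 dpa. DESeq2 gave 11 lowered and 1 raised at 4 against 0 dpa in the mutant, 6 raised in sp7+ cells, 3 higher in sp7- cells at 4 dpa and 16 in the interaction. A false discovery rate of 0.01 gave 13 and 0 for the mutant at 4 against 0 dpa, 4 lowered and 6 raised in sp7+ cells, 2 higher in sp7- cells at 4 dpa and 5 in the interaction. Without a filter on low counts, 14 were higher in sp7- cells at 4 dpa and 28 passed the interaction, with only the compared groups in the fit the first was 14, and with only mutant libraries 0 were raised at 4 against 0 dpa. In each case the cause was not tested.

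With replicate number as a block the counts were 76 lowered at 1 dpa, 45 raised at 4 against 1 dpa and 19 lowered and 2 raised at 4 against 0 dpa in the mutant, 7 lowered and 11 raised in sp7+ cells, 16 and 12 in sp7- cells, 13 and 21 higher in sp7+ and sp7- cells at 0 dpa, 15 and 11 at 4 dpa, and 11 in the interaction. With the shared fins as a block within time points, 14 were higher in sp7- cells at 4 dpa and 28 passed the interaction. For these alternative fits the shares of all genes are not given. Across 731 gene results, alternatives gave 10766 unchanged calls, 383 gained, 359 lost and 0 reversed. With 2 libraries a group, precision rests on the shared spread, and members under 1 CPM in sorted cells rest on few counts.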
